A study of Mus musculus with 6 samples.

Results

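The genes described here move cholesterol out of cells and take up lipoproteins, and they comprise Abca1, Abcg1, Apoe, Vldlr, Lrp1, Mylip, Nr1h3, Scarb1 and Lpl. These 9 genes were named from a list and followed through all of their probe sets, out of 16380 genes with a value on the arrays, and all 9 were bright enough to be tested. RNA came from the olfactory epithelium of 3 male C57BL/6 mice, 8 weeks old by the labels (the methods give a younger age), 5 days after surgical removal of 1 olfactory bulb (olfactory bulbectomy, OBX). In each mouse the epithelium ipsilateral to the missing bulb (OBX) was compared with the contralateral epithelium (control), giving 3 OBX and 3 control arrays, 1 for each side of each mouse. Both sides therefore came from an animal that had undergone surgery, and no array came from an unoperated mouse. Affymetrix Mouse Exon 1.0 ST arrays read each gene through several exon-level probe sets, whose log2 signals were combined to 1 value per gene and array.

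Removal of a bulb cuts the axons of the olfactory sensory neurons (OSNs) on that side, and the mature OSNs die, are cleared and are replaced from basal cells. A cell that has taken up membrane lipid cannot break down the cholesterol in it, and it exports the surplus through the transporters ABCA1 and ABCG1 to acceptor particles that carry apolipoprotein E. The same surplus forms oxysterols that activate the liver X receptors (LXRs), nuclear receptors that raise transcription of Abca1, Abcg1, Apoe, Lpl and Mylip. Receptors of the low-density lipoprotein (LDL) receptor family and the scavenger receptors bring lipoproteins and lipid-laden debris into cells.

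Promoter sequence is shown for Abca1 and Mylip, both known targets of the LXRs, because both were higher on the OBX side. Nr1h3, which encodes LXRα, was not higher, and the activity of the LXRs was not measured. Apoe, a further LXR target, was also higher, and its windows are described but not shown. Abcg1 and Lpl, the other LXR targets named above, did not pass the test given below and had no window here. The windows are the 250 bases before the annotated start in RefSeq on build GRCm38.p6, chr4:53159896-53160145 on the minus strand for Abca1 and chr13:45389492-45389741 on the plus strand for Mylip. Capitals mark the motif TATAAA and, in Abca1, the best match on either strand to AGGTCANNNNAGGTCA. This is the idealised direct repeat with a spacer of 4 bases that the LXRs bind together with their partners.
Abca1 promoter: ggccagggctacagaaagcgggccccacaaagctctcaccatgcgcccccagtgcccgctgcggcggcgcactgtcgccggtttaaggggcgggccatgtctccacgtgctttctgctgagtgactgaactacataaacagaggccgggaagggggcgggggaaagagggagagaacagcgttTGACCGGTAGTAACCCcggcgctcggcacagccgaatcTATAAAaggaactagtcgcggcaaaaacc
Mylip promoter: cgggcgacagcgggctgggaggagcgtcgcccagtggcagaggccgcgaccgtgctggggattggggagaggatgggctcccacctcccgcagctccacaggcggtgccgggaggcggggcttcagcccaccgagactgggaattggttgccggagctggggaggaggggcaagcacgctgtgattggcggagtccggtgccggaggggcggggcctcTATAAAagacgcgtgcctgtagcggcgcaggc
The match in Abca1 lay on the opposite strand and held 9 of the 12 fixed bases, which 18.5% of 32851 RefSeq promoter windows reached or exceeded on either strand. In Mylip the best match held 6 of the 12, a level that nearly every window reached, so no repeat is marked there. TATAAA stood in the direction of transcription in 7.59% of all windows and began 29 bases before the start in Abca1 and 32 bases before it in Mylip. Promoter windows were found for 6 of the 9 genes, and none of them held the exact repeat, as did 0.0152% of all windows. In the windows of Apoe the best match held 7 or 8 of the 12 fixed bases. TATAAA began at base -96 relative to the start in the Apoe window chr7:19698622-19698871 and was absent from its other windows. A match of letters is a description and not evidence of binding.

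Of the 9 genes, 5 rose on the OBX side (Abca1, Lrp1, Apoe, Mylip and Scarb1), none fell, and 4 did not pass the test (Lpl, Nr1h3, Abcg1 and Vldlr). A gene was called at an adjusted p under 0.05 in a limma fit over all 14742 genes tested, with mouse as a block and Benjamini-Hochberg adjustment. In that fit 9.89% of all genes were higher and 12.7% were lower on the OBX side, against 5 of 9 and 0 of 9 here, and at an unadjusted p under 0.05 the counts here were 6 higher and 0 lower. All 3 OBX arrays lay above all 3 control arrays for 6 of the 9 genes, a pattern that 20.7% of all genes showed. The median difference of the 9 genes was 0.51 on the log2 scale, against -0.01 for all genes. These are bulk samples, in which more cells of a type and more RNA per cell cannot be told apart.

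The sides differed widely outside these genes too. All 10 mature OSN markers tested fell (median -1.32), while 6 of 7 markers of globose basal cells and precursors rose (median 0.87). Macrophage markers rose in 9 of 21, all 21 differences were above 0 (median 0.75), and the summed linear signal of the 21 ran from 6226 to 8584 on the control arrays and from 10361 to 19105 on the OBX arrays. The dimmest of them, Ms4a7, had a control mean of 5.23 on the log2 scale, not far above the level below which genes were left out. Cd68, which the paper uses as its macrophage marker, was 1.09 higher on the log2 scale, the largest of the 21 differences. Lyz2 was 1.02 higher, and the smallest of the 21 differences was 0.12 (Cd163). Fibroblast markers rose in 3 of 8 (median 0.57), Bowman gland markers in 3 of 5 (median 0.52) and horizontal basal cell markers in 3 of 6 (median 0.36, all 6 above 0). None of 5 adipocyte markers passed (median -0.14, 0 at an unadjusted p under 0.05 by limma), but this list was dim, with control means of 3.95 to 7.22 on the log2 scale and 1 further marker too dim to be tested. Of 9 markers of sustentacular cells, the supporting cells of the epithelium, 1 rose, and their summed signals were 51931 to 52946 on the control arrays and 51338 to 56184 on the OBX arrays.

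Abca1 encodes the transporter that loads cholesterol and phospholipid onto lipid-poor apolipoproteins, and its rise and that of Lrp1 were about equal and the largest of the 9 in the fit of all 3 mice. Its log2 signal was 8.66, 8.58 and 8.56 on the control side of mice 1, 2 and 3 and 9.50, 9.88 and 9.54 on the OBX side. The control values lay close together, the OBX values stood well above them, and mouse 2 had the highest. The difference was 1.04 (SE 0.12, n = 3 mice, 95% interval 0.74 to 1.35), or 2.06-fold, with an adjusted p of 0.00768 by limma. Only 28 of the genes called higher rose by more. Abca1 was still called whichever mouse was left out. Without mouse 1 its difference was 1.14, below the 1.29 of Lrp1 and the 1.22 of Lpl.

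Abcg1 encodes the related half-transporter that passes cholesterol to mature high-density lipoprotein (HDL), and it did not follow Abca1. On the log2 scale it read 11.55, 11.38 and 11.48 on the control side and 11.44, 11.08 and 11.53 on the OBX side. The sides overlapped, with mice 1 and 2 lower and mouse 3 slightly higher on the OBX side. The difference was -0.12 (SE 0.10, n = 3, 95% interval -0.38 to 0.15; adjusted p = 0.444 by limma). Within each mouse, the difference of Abca1 exceeded that of Abcg1 by 0.96, 1.60 and 0.93 on the log2 scale, a mean of 1.16 (SD 0.38, n = 3). An exact two-sided sign-flip permutation test gave p = 0.25, the smallest value that 3 pairs allow. The pair sets a gene with a rise among the largest of the set against a gene with a value among the lowest. The test therefore decides nothing about the contrast.

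**Figure D1:**
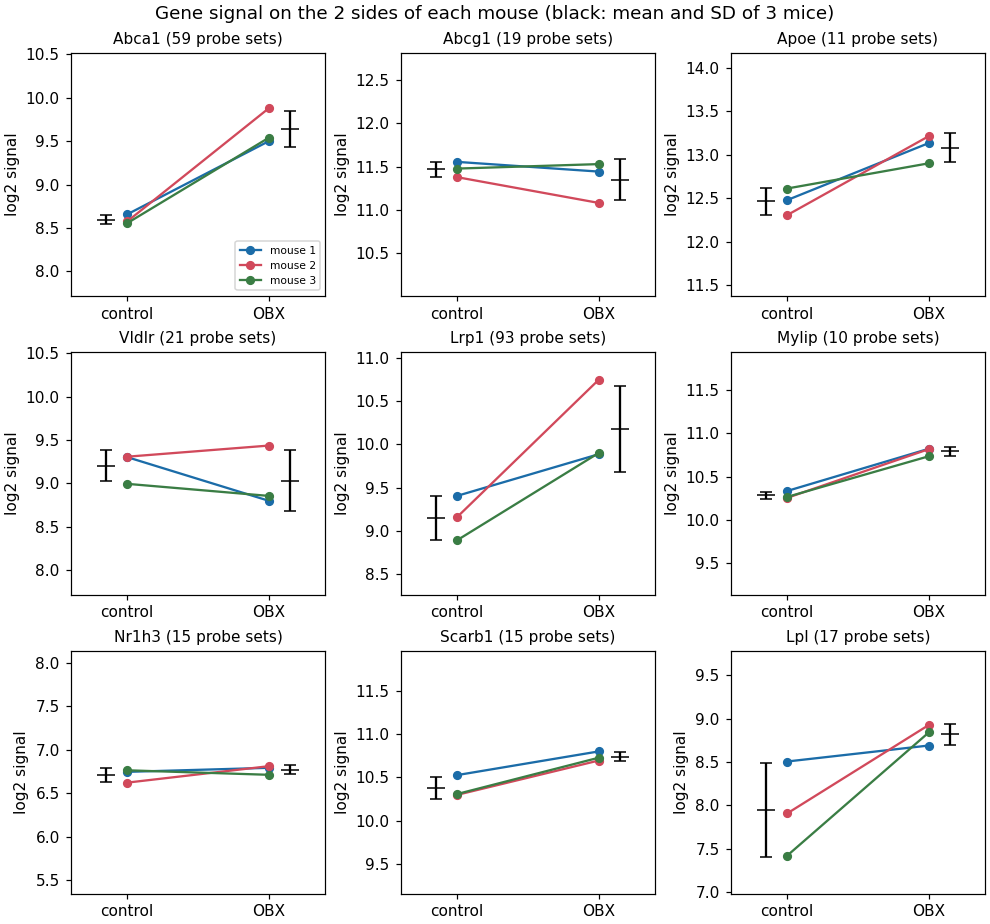
Log2 gene signal (vertical axis) on the control and OBX side for each of the 9 genes, 1 line per mouse, with the mean and SD of 3 mice in black beside the points. Abca1, Lrp1, Lpl, Apoe, Mylip and Scarb1 have all 3 OBX values above all 3 control values, and Abcg1, Vldlr and Nr1h3 overlap.

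Apoe encodes apolipoprotein E, the lipoprotein component that glia and macrophages secrete and that the LDL receptor family recognises. Apoe signal was 12.48, 12.30 and 12.61 on the control side and 13.14, 13.21 and 12.90 on the OBX side (log2). All OBX values were higher than all control values, and mouse 3 had the smallest gap. The difference was 0.62 (SE 0.14, n = 3, 95% interval 0.26 to 0.98), or 1.54-fold, with an adjusted p of 0.0382. The call was lost when any 1 mouse was left out, at adjusted p = 0.0948 without mouse 1, 0.0768 without mouse 2 and 0.0631 without mouse 3.

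Lpl encodes lipoprotein lipase, which releases fatty acids from the triglyceride core of lipoproteins. Log2 values of Lpl were 8.50, 7.91 and 7.42 on the control side and 8.69, 8.93 and 8.84 on the OBX side. The OBX values were close to one another and lay above all control values, and the spread came from the control side, where mouse 1 was high and mouse 3 low. The differences of 0.18, 1.02 and 1.42 averaged 0.87 (SE 0.25, 95% interval 0.24 to 1.51), and Lpl did not pass the test (adjusted p = 0.0637 by limma). It passed without mouse 1, at 1.22 and an adjusted p of 0.0123. The mean difference of the fibroblast markers was 0.38, 0.67 and 0.72 in mice 1, 2 and 3, and that of the dim adipocyte markers was -0.26, -0.22 and 0.09. Markers of globose basal cells and precursors had the same order over the mice (0.60, 0.68 and 0.87). Macrophage (0.54, 1.07 and 0.57) and endothelial markers (0.16, 1.17 and 0.40) were highest in mouse 2. The part of these cell types in the Lpl values was not tested.

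Lrp1 encodes a large receptor of the LDL receptor family that takes up lipoproteins carrying apolipoprotein E and serves in the clearance of dead cells and myelin debris. Its log2 signal was 9.41, 9.16 and 8.89 on the control side and 9.89, 10.74 and 9.90 on the OBX side. Every OBX value exceeded every control value, and mouse 2 stood apart on the OBX side. The difference was 1.02 (SE 0.22, n = 3, 95% interval 0.46 to 1.59), or 2.03-fold, with an adjusted p of 0.0336. Without mouse 3 the difference was 1.03 and the call was lost (adjusted p = 0.111), in a fit that called 63 genes higher and 825 lower of all genes against 1458 and 1877 with 3 mice.

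Vldlr encodes another receptor of that family, which binds apolipoprotein E as well and the guidance protein reelin. Vldlr read 9.30, 9.31 and 8.99 on the control side and 8.80, 9.44 and 8.86 on the OBX side (log2). The sides overlapped and the mice differed in direction, with mouse 2 higher and mice 1 and 3 lower on the OBX side. The difference was -0.17 (SE 0.14, n = 3, 95% interval -0.54 to 0.19; adjusted p = 0.425 by limma). Within each mouse the difference of Lrp1 exceeded that of Vldlr by 0.98, 1.45 and 1.15, a mean of 1.19 (SD 0.24, n = 3), again at the smallest exact permutation p that 3 pairs allow (0.25, two-sided). This pair too joins a rise among the largest with a value among the lowest, so the test decides nothing here either.

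Scarb1 encodes the scavenger receptor SR-BI, which takes cholesteryl esters selectively from HDL and can pass free cholesterol in either direction. Its log2 signal was 10.53, 10.30 and 10.31 on the control side and 10.80, 10.69 and 10.73 on the OBX side. The rise was small but similar in the 3 mice, and the sides did not overlap. The difference was 0.36 (SE 0.09, n = 3, 95% interval 0.14 to 0.58), or 1.29-fold, with an adjusted p of 0.0419. The call was lost without mouse 1 (adjusted p = 0.0789), without mouse 2 (0.0841) and without mouse 3 (0.294).

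**Figure D2:**
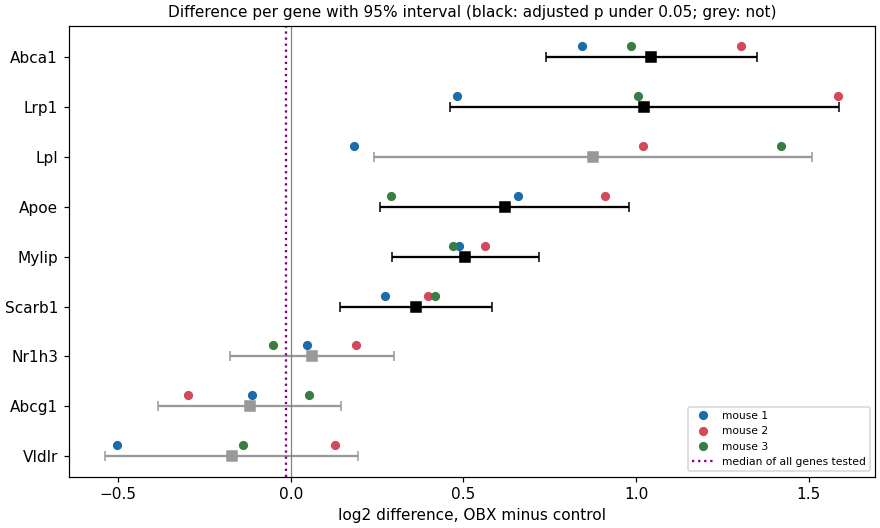
Log2 difference, OBX minus control (horizontal axis), for each of the 9 genes: coloured points are the 3 mice, squares the fitted difference and bars its 95% interval, black where the adjusted p was under 0.05 and grey where it was not. The dotted line is the median of all genes tested (-0.01). Intervals of Nr1h3, Abcg1 and Vldlr cross 0, and Lpl, whose interval does not, missed the adjusted threshold.

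Nr1h3 encodes LXRα, the sterol-sensing receptor itself. Its log2 signal was 6.75, 6.62 and 6.76 on the control side and 6.79, 6.81 and 6.71 on the OBX side. The values of the sides overlapped and were nearly level. The difference was 0.06 (SE 0.09, n = 3, 95% interval -0.18 to 0.30; adjusted p = 0.659 by limma), and its value depended on the setting, from -0.25 when arrays were set to the ribosomal protein gene level and -0.20 without the 30% dimmest probe sets to 0.42 (adjusted p = 0.154) with the median of its probe sets as the gene value. The dim signal of this gene limits what its probe sets can show.

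Mylip encodes IDOL, a ubiquitin ligase that marks LDL receptor, VLDL receptor and ApoE receptor 2 (the product of Lrp8) for degradation. Its log2 signal was 10.33, 10.26 and 10.27 on the control side and 10.82, 10.82 and 10.73 on the OBX side. Its 3 differences, 0.49, 0.56 and 0.47, were the most alike among the 9 genes. The difference was 0.51 (SE 0.08, n = 3, 95% interval 0.29 to 0.72), or 1.42-fold, with an adjusted p of 0.0176. Without mouse 3 the difference was 0.52 and the adjusted p 0.135.

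Among the genes called higher, mouse 2 had the largest difference of the 3 mice for Abca1, Lrp1, Apoe and Mylip. The differences of Mylip were close together (0.49, 0.56 and 0.47 in mice 1, 2 and 3). Scarb1, also called, was highest in mouse 3 (0.27, 0.40 and 0.42), as was Lpl, which was not called (0.18, 1.02 and 1.42). The mean difference of the macrophage markers was 0.54, 1.07 and 0.57 in mice 1, 2 and 3, and that of the endothelial markers was 0.16, 1.17 and 0.40. Mouse 2 was also highest for olfactory ensheathing and Schwann glia (0.11, 0.59 and 0.04) and for the scavenger receptors (0.16, 0.43 and 0.25). Mature OSN markers fell most in mouse 2 (-1.09, -1.78 and -1.42). Other lists differed: Bowman gland markers were highest in mouse 1, and globose basal cell and fibroblast markers in mouse 3. Of the 8 endothelial markers 1 was called higher, and their summed linear signal ran from 1402 to 1822 on the control arrays and from 1941 to 2992 on the OBX arrays. By in situ hybridization, the paper detected Mylip mainly in the layer of sustentacular cells. The part of any of these cell types in the rise of the 4 genes was not tested.

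The values also depended on the level to which the arrays were scaled. Ribosomal protein genes, used as an alternative reference, were 0.23 higher on the OBX side at the median, and centring each array on their level moved the median of all genes to -0.32 and the calls over all genes from 1458 higher and 1877 lower to 246 higher and 6238 lower. Under that centring Abca1 and Lrp1 were still called higher, Apoe (adjusted p = 0.126), Mylip (0.240) and Scarb1 (0.769) were not, and Abcg1 was called lower at -0.43 (adjusted p = 0.0358 by limma).

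The probe sets of a gene share its RNA and are not replicates, but they show whether a gene value rests on a few of them. The 9 genes had 260 probe sets, of which 254 were bright enough to be tested, and 68 of these (26.8%) were higher and 0 lower on the OBX side at an adjusted p under 0.05 in a limma fit over 188352 probe sets. In that fit 2.5% of all probe sets were higher and 4.26% were lower. At an unadjusted p under 0.05, 188 of the 254 were higher and 0 lower. The count was 0 without mouse 2 or without mouse 3, when 0 of all 188352 probe sets were called in either direction, and 111 without mouse 1, when 4920 of all probe sets were higher. In these genes, at an unadjusted p under 0.05, the count was 160, 157 and 177 in the same order.

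Abca1 held 49 of the 68, Lrp1 17, Apoe 1 and Lpl 1. All 59 probe sets of Abca1 had a positive difference, from 0.075 to 1.55 on the log2 scale with a median of 1.12. All 93 of Lrp1 were positive in every mouse, from 0.22 to 1.34 with a median of 1.01. In Abca1, 58 of the 59 were positive in every mouse, though not by equal amounts. The 11 probe sets of Apoe (0.42 to 0.87) and the 10 of Mylip (0.18 to 0.71) were likewise all positive, and 14 of the 15 of Scarb1 were. In Abcg1, 17 of the 19 probe sets were below 0, within a range of -0.22 to 0.16. Vldlr had 4 of 21 above 0, and Nr1h3 had 8 of 15 above 0 over a wide range, from -0.37 to 0.96.

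**Figure D3:**
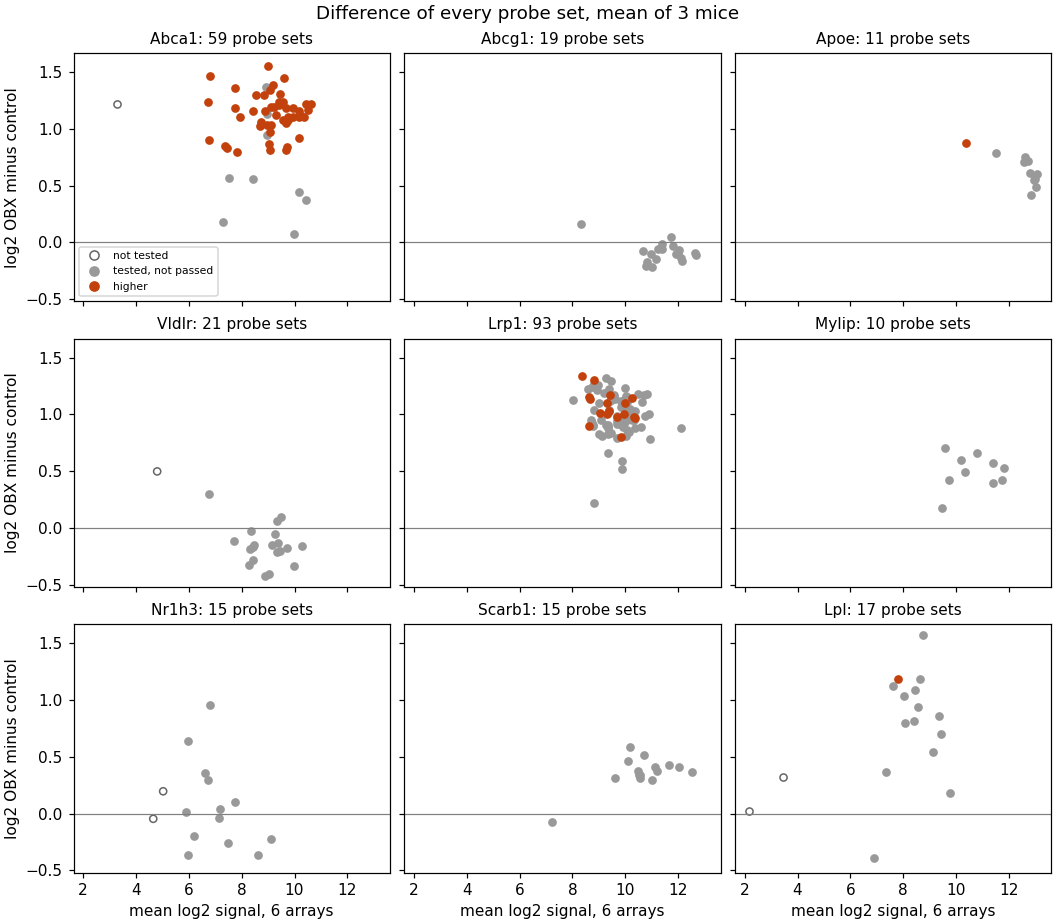
Log2 difference, OBX minus control and mean of 3 mice (vertical axis), of every probe set of the 9 genes against its mean log2 signal over the 6 arrays (horizontal axis). Filled orange points had an adjusted p under 0.05, grey points did not and open points were too dim to be tested. The points of Abca1 and Lrp1 gather near 1, those of Abcg1 just below 0, and those of Lpl and Nr1h3 scatter.

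Abca1 was the only 1 of the 9 genes whose probe sets changed by unequal amounts (limma diffSplice with Simes' method, adjusted p = 0.00919), a call that 7.99% of the 13357 genes with at least 4 tested probe sets received. At an unadjusted p under 0.05, 3 of the 9 were uneven, Scarb1 (adjusted p = 0.0746) and Lpl (0.206) being the others. The probe set of Abca1 with the smallest difference, 4954173, averaged 9.94 (SD 0.054, n = 3) on the control side and 10.02 (SD 0.075, n = 3) on the OBX side. It was brighter than the median probe set of the gene, and its difference of 0.075 lay 0.99 below that of the others (diffSplice adjusted p = 0.00244). At the other extreme, probe set 4436425 read 8.42, 8.17 and 8.13 on the control side and 9.41, 10.24 and 9.72 on the OBX side, a difference of 1.55. The unevenness was not called without mouse 3 (adjusted p = 0.781). Which exon each probe set covers was not analysed here. In Lpl the brightest probe set, 4827892, differed by 0.18, against a median of 0.81 over its 17 probe sets.

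Among other genes the LXRs control or pair with, 3 of 12 tested (25%) rose and none fell (median 0.17), against 9.89% and 12.7% of all genes. The risers were Mertk, a receptor for apoptotic cells (0.82, SE 0.10, adjusted p = 0.00921), Pltp, which transfers phospholipid between lipoproteins (0.61, SE 0.09, adjusted p = 0.0141), and Fasn, the fatty acid synthase (0.53, SE 0.11, adjusted p = 0.0286). None of the 3 was called without mouse 3, when 63 of all genes were called higher and 3 of the 12 were higher at an unadjusted p under 0.05.

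Besides Lrp1 and Vldlr, the LDL receptor family and its adaptors had 2 of 13 higher and 2 lower (15.4% each, median 0.02), shares near those of all genes (9.89% and 12.7%). Lrp4, a receptor at neuromuscular synapses (0.61, SE 0.09, adjusted p = 0.0133), and Lrp5, a Wnt co-receptor (0.54, SE 0.13, adjusted p = 0.0412), rose. Lrp11 (-1.21, SE 0.13, adjusted p = 0.00709) and Lrp8, which encodes ApoE receptor 2 (-0.48, SE 0.12, adjusted p = 0.0458), fell. Without mouse 3 the counts were 0 higher and 1 lower, and without mouse 2 they were 1 and 1.

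Scavenger receptors other than Scarb1 were higher in 5 of 13 (38.5%) and lower in none, against 9.89% and 12.7% of all genes. Their median was 0.42, with 7 higher and 0 lower at an unadjusted p under 0.05 by limma. Without mouse 3, when 63 of all genes were called higher, 1 of the 13 was called higher. At an unadjusted p under 0.05, 6 of the 13 were higher in that fit. The 4 with the smallest p were Scara3 (0.71, SE 0.11, adjusted p = 0.0167), Scara5, a ferritin receptor (0.51, SE 0.09, adjusted p = 0.0209), Colec12 (0.81, SE 0.16, adjusted p = 0.0277) and Stab1, a clearance receptor of macrophages and sinusoidal endothelium (0.79, SE 0.16, adjusted p = 0.0317).

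The remaining apolipoproteins and lipid transfer genes had 0 of 12 higher (1 at an unadjusted p under 0.05 by limma) and 1 lower (8.33%, against 12.7% of all genes), Abca7, a lipid transporter related to Abca1 (-0.77, SE 0.11, adjusted p = 0.0137), which was not called without mouse 3. Of 10 lipases and partners of lipoprotein lipase, 1 rose (10%, against 9.89% of all genes), Angptl4, an inhibitor of that enzyme (0.42, SE 0.09, adjusted p = 0.0332). The call for Angptl4 was lost without any 1 mouse.

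Cholesterol synthesis and its control by SREBP had 0 of 23 genes higher (1 at an unadjusted p under 0.05 by limma) and 2 lower (8.70%, against 12.7% of all genes, median -0.04). These were Fdft1, the squalene synthase (-0.43, SE 0.08, adjusted p = 0.0263), and Scap, the sterol-sensing escort of SREBP (-0.37, SE 0.08, adjusted p = 0.0375), and neither passed when any 1 mouse was left out. Intracellular cholesterol transport and storage had 3 of 19 higher and 3 lower (15.8% each, median 0.09), near the 9.89% and 12.7% of all genes. Npc2, which lifts cholesterol out of the lysosome, rose (0.59, SE 0.09, adjusted p = 0.0137). Gramd1c, a sterol transporter of the endoplasmic reticulum (-1.33, SE 0.14, adjusted p = 0.00681), and the transporters Abca5 (-0.70, SE 0.08, adjusted p = 0.00788) and Abca2 (-0.71, SE 0.09, adjusted p = 0.00919) fell. Without mouse 3 the counts were 0 higher and 1 lower. Centring on the ribosomal protein genes moved these list counts as it did those of all genes: the LXR partners and targets had 1 higher and 3 lower, the scavenger receptors 0 higher and 3 lower, and cholesterol synthesis 0 higher and 8 lower.

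**Figure D4:**
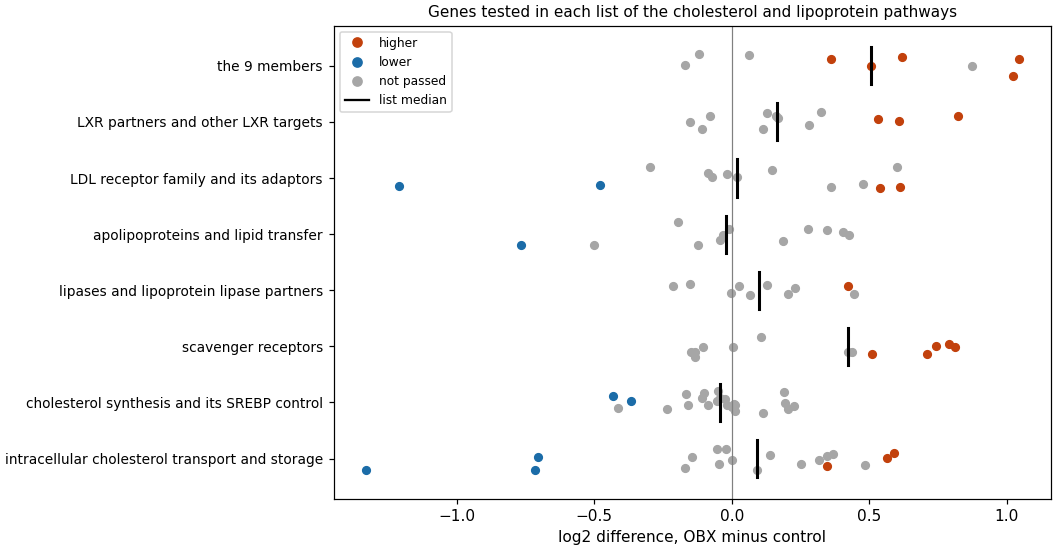
Log2 difference, OBX minus control (horizontal axis), of each gene tested in the 9-gene set and in 7 lists of related genes. Orange points were higher and blue points lower at an adjusted p under 0.05, grey points did not pass, and the black bar is the list median, 0.51 for the 9 genes and between -0.04 and 0.42 for the other lists.

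The genes whose values followed each riser most closely over the 6 arrays were found by Euclidean distance between mean-centred log2 values, as a description over arrays that come in pairs from 3 mice. Ogn, Npnt and Thbs2 lay nearest to Abca1, Ogn at a distance of 0.11 with a difference of 1.03 against the 1.04 of Abca1. Mxra8, Nfia and Col12a1 lay nearest to Lrp1 (distances 0.18, 0.18 and 0.22). Tanc2, Fgf7 and Adamtsl1 lay nearest to Apoe, Slc22a21, Wwtr1 and Ppp4r4 to Mylip, and Kif1c, Ivd and Cryz to Scarb1, at distances from 0.038 to 0.14.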

How the data were processed

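Olfactory epithelium RNA of 3 mice was hybridised to 6 arrays, 1 per side and mouse. The authors deposited log2 signals of 229581 exon-level probe sets, computed by robust multichip analysis in Affymetrix Expression Console. Its version and the genome build were not given in the sources used here. Robust multichip analysis normalizes arrays to a common distribution, so differences are relative to the other genes of the array. The methods describe gene-level values, so that step was repeated: 209279 probe sets with 1 gene symbol in the platform annotation (4446 had several and 15856 none) were combined by Tukey's median polish into 16380 genes. Symbols were checked against a RefSeq list (14190 current, 2120 updated, 25 kept to avoid merging genes, 45 not in it). The dimmest 10% by mean signal were dropped from the genes, following the methods, and likewise from the probe sets. The methods used a paired t-test; here limma 3.58.1 in R 4.3.3 (lmFit, eBayes, data.table, version 1.17.8) was fitted with side and mouse, two-sided, with Benjamini-Hochberg adjustment over all features. The diffSplice function was run on genes with at least 4 probe sets. Figures were drawn with Python 3.11.15, pandas 2.3.3 and matplotlib 3.10.9. Scripts were tested on simulated data.

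Sides labelled with the same number came from the same mouse by the methods' paired test and the labels; the residuals of the paired sides correlated at -0.07, 0.27 and 0.24. Array medians ran from 8.37 to 8.55, and arrays correlated at 0.970 to 0.983 within a side. The number of arrays limits the precision. The SE, intervals and p-values of limma rest on a spread between 3 mice that eBayes pools in part across genes. They are not the spread of each gene alone. The 3 differences of Mylip had an SD of 0.049 and its SE was 0.082, against 0.63 and 0.25 for Lpl. Named genes were the 9 genes, up to 4 called genes with the smallest p in each related list, the 3 nearest genes to each called gene, and the extreme probe sets of an unevenly changed gene; Lpl probe sets and markers were named after their values were seen. The genes and lists were chosen with earlier results of these data known. Some genes of the lists were not analysed here.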

Additional observations from a re-analysis of the deposited data

How the results depend on the processing

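Without the replicate block that pairs the sides of a mouse, 4 of the 9 genes were higher instead of 5 (Scarb1 at adjusted p = 0.0501), and 89 instead of 68 probe sets. The count of 5 higher became 3 with the methods' paired t-test unadjusted (Abca1, Mylip and Scarb1), 0 with that t-test after Benjamini-Hochberg adjustment (which called 0 genes higher and 1 lower of all those tested), 2 with arrays centred on the level of ribosomal protein genes, 1 with arrays shifted by the deviation of those genes (chosen after seeing the data), and 1 to 4 with 1 mouse left out. It was 4, without Scarb1, with no signal filter, with arrays centred on their median and with the median of probe sets. Scarb1 lost its call in 10 of 17 settings. The count was 6, with Lpl added, in the settings named below for Lpl that kept all 3 mice. The count of 0 lower became 1 when centred on the ribosomal level (Abcg1) and stayed 0 in the other settings run, including with 1 mouse left out. Unevenly changed genes numbered 2 with quantile normalization (Abca1 and Scarb1) and 0 to 2 with 1 mouse left out, against 1. The 68 higher probe sets became 16 with no filter on dim probe sets, 154 with the 30% dimmest left out, 175 with a trended and robust variance, and 0 to 111 with 1 mouse left out; over all probe sets the 4715 higher became 879, 11840, 16670 and 0 to 4920 in the same settings. Probe sets called lower numbered 0 in all settings run, with at most 3 at an unadjusted p under 0.05. The sign turned for Nr1h3 alone, at -0.25 when centred on the ribosomal level, -0.17 when shifted by their deviation, -0.20 with the gene value built without the 30% dimmest probe sets, and between -0.0026 and 0.12 with 1 mouse left out, and its value rose to 0.42 with the median of probe sets. Lpl became a call without mouse 1, with the 30% dimmest genes left out (adjusted p = 0.0497), with a trended and robust variance (0.0495) and at an adjusted p under 0.20. Abca1 lost its call only with the adjusted t-test (adjusted p = 0.141), over a range of 0.73 to 1.14 in 17 settings. The cause of these shifts was not tested. The fits that leave out a mouse have fewer samples, but sample number and the mouse left out were not separated. Of all genes, 988 were called higher without mouse 1, 1122 without mouse 2 and 63 without mouse 3. With 3 mice, the difference of Lpl (SD 0.63 over the mice) did not pass in the main fit, and its call depended on the setting. That of Lrp1 (SD 0.55) did pass in the main fit.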
